A study of Populus tremula x Populus tremuloides with 22 samples.

Results

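Among 34699 genes counted in hybrid aspen stems, 52 were almost silent in wild-type (WT) trees and were counted in every line that overexpressed the Arabidopsis gene LBD11 (LBD11-OE). They were chosen on CPM values, the count of a gene divided by the total count of its library and multiplied by 1e6. A member had a WT mean under 0.5 CPM, a mean of at least 1 CPM in each of the 3 LBD11-OE lines, and a mean over the LBD11-OE libraries at least 4 times the WT mean. A WT mean under 0.5 CPM was found for 10650 genes. A further 2 genes met the limits but lie in an interval of chromosome 13 (15567206 to 15657495, 44 genes), and the rule left them out. The WT and LBD11-OE levels of the members, and the difference between them, are therefore given as a description, and no test of that difference is used as evidence.

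The trees were Populus tremula x Populus tremuloides, grown for 3 weeks in a greenhouse, and the tissue was the stem internode. There were 5 WT libraries, 9 of LBD11-OE (3 for each of lines 1, 2 and 14) and 8 of LBD4-OE, trees that overexpress the Arabidopsis gene LBD4 (3 for line 11, 2 for line 14 and 3 for line 17), 22 in all. The title of the series calls the overexpression xylem-specific, but the promoter is not named in the labels, and no empty-vector or other transgenic control is among the groups. One LBD11-OE line is numbered 14 in the sample titles and 3 in the genotype field, and is called 14 here. Whether replicates came from separate trees is not stated, so the p-values reflect the spread between libraries, which may be technical. Levels of the introduced Arabidopsis transcripts were not analysed here.

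LBD4 and LBD11 belong to the LATERAL ORGAN BOUNDARIES DOMAIN (LBD) family, plant transcription factors that share a DNA-binding LOB domain. In Arabidopsis both act in the vascular cambium, the layer of dividing cells from which wood and secondary phloem form, LBD4 at its border with the phloem and LBD11 in promoting the divisions. A gene with almost no transcript in control stems gives a low background against which a gain is easy to see, although its few reads carry a large counting error. The files pair the identifiers with no gene name or product, so the members are given by identifier and position, without a role. Identifiers follow version 4.1 of the Potri gene models of black cottonwood, and coordinates are those of the files.

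Library totals ran from 23437445 to 41969957 counts, so 1 CPM stood for about 23 to 42 reads. All 52 members passed the default low-count filter of edgeR. That filter can be passed through the LBD11-OE libraries alone. A panel of 5 identifiers listed as secondary wall cellulose synthases, markers of wood-forming cells whose identity could not be checked here, had summed levels of 3668 to 4868 CPM (WT), 4021 to 5338 CPM (LBD4-OE) and 4587 to 6776 CPM (LBD11-OE). None of the panel was a member, none was at 0, and the part of this difference in the members' levels was not tested. In whole-stem RNA, more cells of a type and more RNA per cell cannot be told apart. A set of 7 libraries (the 3 of LBD11-OE-2, the 3 of LBD4-OE-11 and WT replicate 3) stood apart from the other 15 through 9 genes that were lower by at least 1 log2 unit in each of the 7, and no member was among those 9.

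The 52 members together made up 13.8, 11.1, 12.2, 13.7 and 11.9 CPM in WT replicates 1 to 5. In LBD4-OE their sum was 22.6, 30.7 and 47.8 CPM in line 11, 23.7 and 15.6 CPM in line 14, and 23.4, 32.9 and 25.3 CPM in line 17. In LBD11-OE it was 152, 165 and 193 CPM in line 1, 202, 310 and 132 CPM in line 2, and 312, 380 and 371 CPM in line 14. The 3 constructs formed 3 bands without overlap, with LBD4-OE above WT (medians of 24.5 and 12.2 CPM) and LBD11-OE far above both. The sums include 6 members, described below, that moved with the left-out interval of chromosome 13. The same order held within the set of 7 libraries, where WT replicate 3 was at 12.2 CPM, LBD4-OE-11 at 22.6 to 47.8 CPM and LBD11-OE-2 at 132 to 310 CPM. The distance between WT and LBD11-OE follows from the choice of members. No LBD4-OE library entered that choice, but the low WT sum did, so the gap between WT and LBD4-OE is also shaped by it.

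**Figure D1:**
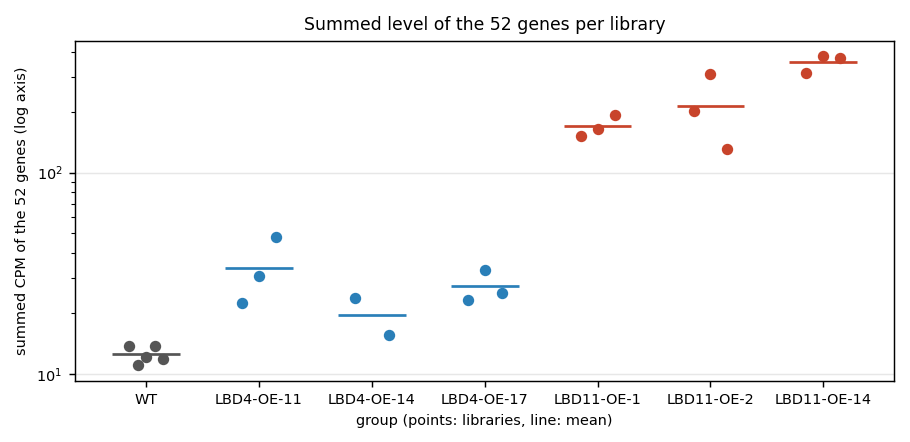
Summed CPM of the 52 genes in each of the 22 libraries (log axis), by group. Points are libraries and lines are group means. WT libraries sit at 11.1 to 13.8, LBD4-OE libraries at 15.6 to 47.8 and LBD11-OE libraries at 132 to 380.

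In WT the member means had a median of 0.249 CPM and ran from 0.0114 to 0.481 CPM. No WT library held any member at 1 CPM or more. A total of 14 members had no read in at least 1 WT library, and 0 members were without reads in all 5. In LBD11-OE the median of the member means was 2.82 CPM (1.13 to 31.4), and each library held 37 to 51 members at 1 CPM or more. Every member was counted in all 9 LBD11-OE libraries. Most of the gain was to a low level: 12 members stayed under 2 CPM, 29 lay between 2 and 5 CPM, and 11 reached 5 CPM, of which 5 reached 10 CPM. The ratio of the LBD11-OE to the WT mean had a median of 12.2 and ran from 4.14 to 565. All 9 LBD11-OE libraries lay above all 5 WT libraries for 44 members, against 3.95% of the 31225 genes with a count in any library, a share fixed in large part by the rule. For the other 8 members at least 1 LBD11-OE library fell within the WT range or below it, and for 4 of them this was replicate 3 of line 2.

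**Figure D2:**
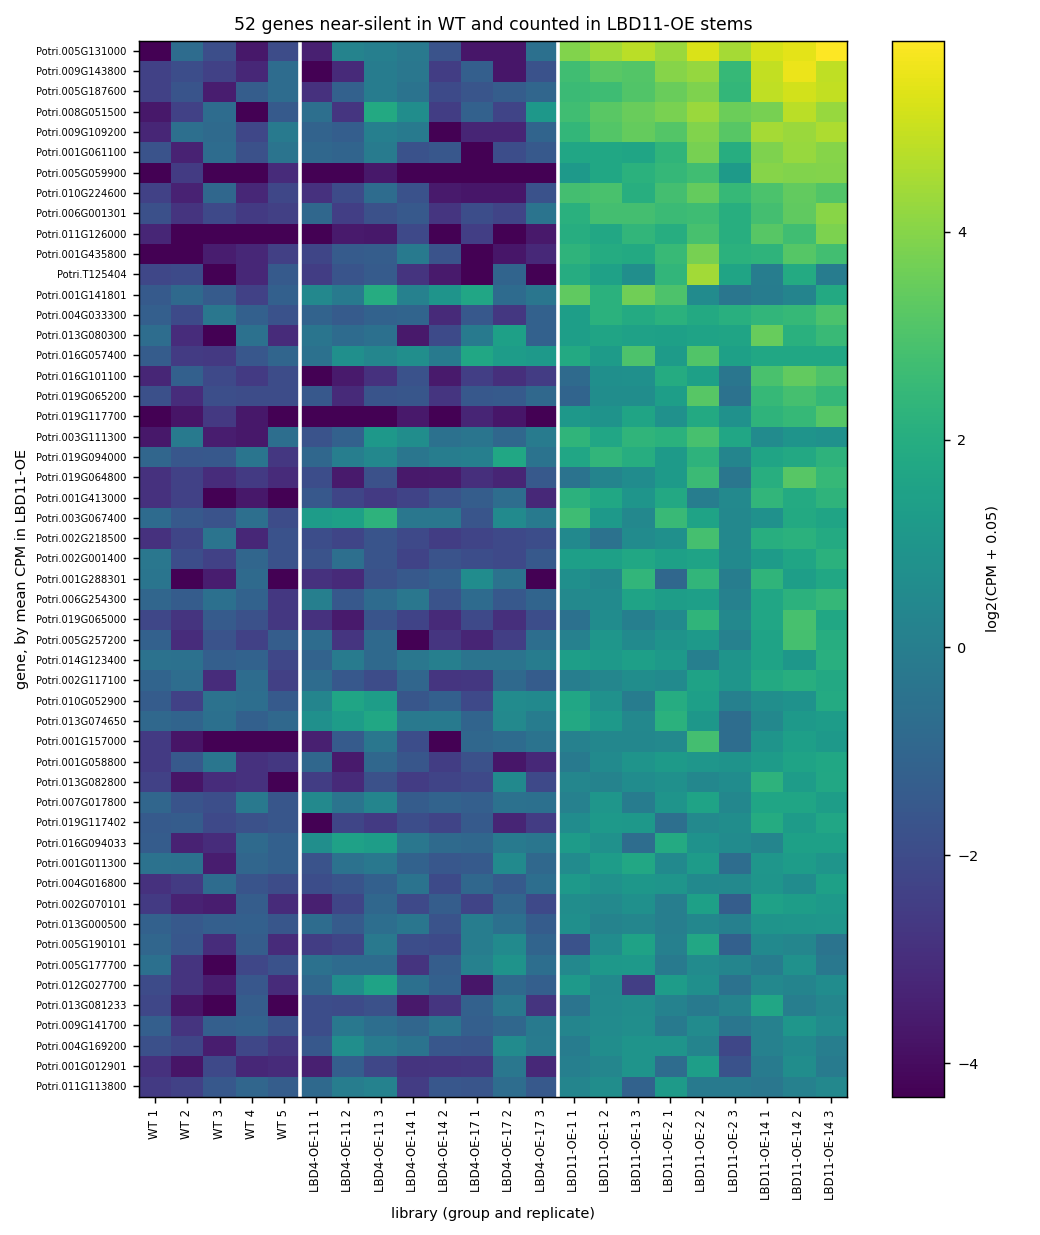
Level of each of the 52 genes (rows, ordered by mean CPM in LBD11-OE) in each of the 22 libraries (columns), as log2(CPM + 0.05). White lines part WT, LBD4-OE and LBD11-OE. The LBD11-OE block is brighter than WT by its mean in all rows, but in some rows single LBD11-OE libraries are as dark as WT. Line 14 is brightest in most of the upper rows, and a few lower rows are also bright in LBD4-OE-11.

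The limits of the rule cut through a continuum. Closest under the WT limit was Potri.013G074650 with a WT mean of 0.481 CPM, and closest above it was Potri.010G146200 with 0.512 CPM. The lowest line mean was 1.02 CPM for the member Potri.009G141700 and 0.960 CPM for the gene just left out, Potri.011G053300. The smallest ratio among members was 4.14 for Potri.013G000500, and Potri.013G066640 fell short with 3.64. A total of 82 genes failed only the WT limit, 5212 only the limit on line means and 6 only the ratio.

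The 8 members with the highest CPM in LBD11-OE lay on 5 chromosomes. CPM is not corrected for transcript length, so its order among genes is not an order of transcript number. Potri.005G131000 (chromosome 5, 10088490 to 10088975, minus strand) was at 0, 0.548, 0.220, 0.0292 and 0.209 CPM in the WT replicates. In LBD11-OE it was at 15.1, 21.2 and 27.7 CPM in line 1, 19.6, 38.6 and 22.1 CPM in line 2, and 37.6, 43.2 and 57.1 CPM in line 14. The 8 LBD4-OE libraries ran from 0.0267 to 1.13 CPM with a median of 0.437 CPM. The lowest LBD11-OE library was thus more than 10 times the highest library of either other group. Potri.009G143800 (chromosome 9, 11451903 to 11453157, plus strand) was at 0.143, 0.214, 0.147, 0.0584 and 0.558 CPM in WT. Its LBD11-OE libraries had a minimum of 5.52, a median of 16.0 and a maximum of 46.04 CPM, and those of LBD4-OE had 0, 0.188 and 0.911 CPM. The LBD4-OE range enclosed the WT range, and both lay below every LBD11-OE library.

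The next members of this group behaved alike in that WT and LBD4-OE overlapped and LBD11-OE stood clear. Potri.008G051500 (chromosome 8, 3020802 to 3023219, minus strand) was at 0.0285, 0.143, 0.550, 0 and 0.314 CPM in WT. It had a minimum of 6.55, a median of 13.5 and a maximum of 27.8 CPM in LBD11-OE, and 0.0996, 0.499 and 3.59 CPM in LBD4-OE. Its LBD4-OE mean of 1.07 CPM was the highest among these 8, with LBD4-OE-11 replicate 3 (3.59 CPM), LBD4-OE-17 replicate 3 (2.07 CPM), LBD4-OE-14 replicate 1 (1.52 CPM) and LBD4-OE-11 replicate 1 (0.597 CPM) above all WT libraries. Potri.009G109200 (chromosome 9, 9413847 to 9414288, plus strand) was at 0.0570, 0.596, 0.513, 0.175 and 0.837 CPM in WT, and at 5.32, 10.8 and 24.1 CPM as minimum, median and maximum in LBD11-OE. Its LBD4-OE mean (0.400 ± 0.375 CPM, SD, n = 8) did not exceed the one in WT (0.436 ± 0.318 CPM, SD, n = 5). Potri.010G224600 (chromosome 10, 20867905 to 20871951, plus strand) was the most even of the 8 across LBD11-OE, at 7.60 ± 2.10 CPM (SD, n = 9). It was at 0.143, 0.0477, 0.477, 0.0584 and 0.174 CPM in WT and at 0.178 ± 0.181 CPM in LBD4-OE (SD, n = 8). The remaining 3 of the 8, Potri.005G187600, Potri.001G061100 and Potri.005G059900, differed among the LBD11-OE lines and are described with the lines.

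Where WT held very few reads, the size of the rise is known only roughly. Potri.001G435800 (chromosome 1, 46162640 to 46164546, minus strand) had 7 reads in all 5 WT libraries (0, 0, 0.0367, 0.0584 and 0.139 CPM) and 1778 in LBD11-OE (minimum 3.58, median 4.82, maximum 13.3 CPM). The ratio of summed counts over summed library totals was 148, with an exact 95% interval of 71.6 to 368. For Potri.011G126000 (chromosome 11, 15701321 to 15701888, minus strand), with 2 WT reads, the same interval ran from 148 to 4439. For Potri.005G131000, with 36 WT reads, it ran from 105 to 207. These intervals cover counting error only. The members were chosen for a high ratio, and these genes were named for the largest ratios among them, so the ratios are favoured by that choice.

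The LBD4-OE libraries show the same genes under the other LBD gene. The members were low there: their LBD4-OE means had a median of 0.386 CPM and a maximum of 1.73 CPM, and 31 of 52 stayed under 0.5 CPM. The LBD4-OE mean was 14.3% of the LBD11-OE mean at the median member. It lay above the WT mean for 39 of 52 members. The median log2 fold change over the members was 0.84, beside -0.0018 over all genes tested. That comparison shares its WT side with the rule, which picked genes for being low in WT, so the direction is favoured by the choice, by an amount that was not measured. The calls below are therefore a description. By edgeR's quasi-likelihood test with Benjamini-Hochberg adjustment over 25626 genes, 6 members were higher in LBD4-OE than in WT and 0 were lower, beside 2.71% of all genes called higher and 1.57% called lower. Among the 1577 tested genes that also had a WT mean under 0.5 CPM, 2.22% were called higher and 0.0634% lower. At an unadjusted p under 0.05, 19 members were higher and 0 lower, beside 11.7% and 10.1% of all genes tested. None of the 8 members with the highest CPM in LBD11-OE was called (lowest adjusted p = 0.120 by edgeR, for Potri.008G051500). The count depended on the tool, with 15 members in DESeq2 (beside 4.84% of its genes) and 1 in limma voom (beside 2.35%). With line as a random block in limma voom it was 0, beside 0.418%.

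Potri.016G057400 (chromosome 16, 3894603 to 3896131, minus strand) had the lowest adjusted p of the 6. It was at 0.342, 0.119, 0.110, 0.292 and 0.453 CPM in WT. In LBD4-OE it was at 0.640, 1.63 and 1.20 CPM in line 11, 1.58 and 0.866 CPM in line 14, and 3.23, 2.38 and 2.22 CPM in line 17. All 8 LBD4-OE libraries lay above all 5 WT libraries. The log2 fold change was 2.74 ± 0.48 (SE) with an edgeR adjusted p of 0.00300. That test took libraries, not lines, as its units. With line as a random block in limma voom the adjusted p was 0.103. In LBD11-OE it had a minimum of 2.33, a median of 3.24 and a maximum of 8.49 CPM, so 2 of the 3 LBD4-OE-17 libraries reached into the LBD11-OE range.

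Potri.004G169200 (chromosome 4, 18661060 to 18662576, plus strand) was at 0.228, 0.167, 0.0367, 0.175 and 0.105 CPM in WT. Its LBD4-OE libraries had a minimum of 0.267, a median of 0.782 and a maximum of 1.59 CPM, and those of LBD11-OE had 0.176, 1.15 and 1.86 CPM. Every LBD4-OE library again exceeded every WT library, and the levels under both transgenes overlapped almost fully. The difference from WT in LBD4-OE was 2.42 ± 0.54 on the log2 scale (SE, edgeR adjusted p = 0.0142), while LBD11-OE against LBD4-OE gave an edgeR adjusted p of 0.259. With line as a random block in limma voom the adjusted p for LBD4-OE against WT was 0.222. Non-overlap of LBD4-OE over WT was found for 3 members, beside 0.89% of the genes with a count in any library, the last being Potri.001G141801. In Potri.001G141801 (chromosome 1, 11611084 to 11613298, plus strand), named after its values were seen, LBD4-OE ran from 0.536 to 3.82 CPM and WT from 0.146 to 0.5004 CPM.

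Potri.019G094000 (chromosome 19, 13099718 to 13101157, minus strand) was at 0.456, 0.286, 0.293, 0.730 and 0.105 CPM in WT. It ran from 0.469 to 3.24 CPM in LBD4-OE with a median of 0.946 CPM, the highest value being LBD4-OE-17 replicate 2. Its log2 fold change was 1.64 ± 0.46 (SE) at an edgeR adjusted p of 0.0432, and 1.21 without that library, at an adjusted p of 0.0794. Potri.001G157000 (chromosome 1, 13202108 to 13203631, minus strand) had 5 reads in WT, at 0.114, 0.0238, 0, 0 and 0 CPM. It ran from 0 to 0.764 CPM in LBD4-OE, with a fitted log2 change of 3.57 ± 1.005 (SE, edgeR adjusted p = 0.0447). A replicate of LBD4-OE-14 had no read of it, so the groups overlapped. The call was lost in 23 of 38 alternatives, among them those without line LBD4-OE-11 (adjusted p = 0.0692) and without LBD4-OE-17 replicate 2 (adjusted p = 0.0754). The last 2 of the 6 calls, Potri.016G094033 and Potri.013G074650, belong to a group of short genes that LBD4-OE-11 set apart.

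Single LBD4-OE lines were also set against WT. In LBD4-OE-11, 7 members were called higher, beside 1.19% of 26271 genes, in LBD4-OE-14 1 member, beside 0.506%, and in LBD4-OE-17 6 members, beside 1.63%. In each of these lines 0 members were called lower, beside 0.75%, 0.206% and 0.99% of all genes. Altogether 12 members were called in at least 1 line, 2 (Potri.016G057400 and Potri.004G169200) in both LBD4-OE-11 and LBD4-OE-17, and 0 in all 3. Besides these 2, the calls in LBD4-OE-11 were Potri.003G067400, Potri.010G052900, Potri.012G027700, Potri.013G074650 and Potri.016G094033. All of these are short genes, described below, that moved with the interval of chromosome 13 left out by the rule. The joint test among the LBD4-OE lines compares only libraries that the rule did not use, with the spread between replicates estimated over all 22. It called 0 members, beside 0.194% of all genes. At an unadjusted p under 0.05 it gave 11 members, beside 9.95% of all genes, and DESeq2 called 1 member, beside 0.933%.

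Against LBD4-OE, LBD11-OE was higher for 43 of 52 members by edgeR's test and lower for 0, beside 8.08% and 8.88% of all genes, with a median log2 difference of 2.77. All 9 LBD11-OE libraries exceeded all 8 LBD4-OE libraries for 28 members, beside 1.32% of genes with a count in any library. Because the rule asked for high LBD11-OE values, these counts describe the members and are no test of them. The 9 members not called in this comparison were Potri.001G141801, Potri.003G067400, Potri.004G169200, Potri.005G177700, Potri.005G190101, Potri.010G052900, Potri.012G027700, Potri.013G074650 and Potri.016G094033.

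Of these 9, 5 belong to a group of 6 short genes that moved with the left-out interval. The interval of chromosome 13 reached higher levels in both constructs than in WT: the sum over its 44 genes was 115 to 306 CPM across WT libraries, 155 to 1024 CPM across LBD4-OE and 356 to 1234 CPM across LBD11-OE. The log2 level of 6 members followed this sum across libraries with r of at least 0.8 in both constructs, a limit set after the values were seen. They were Potri.003G067400, Potri.010G052900, Potri.011G113800, Potri.012G027700, Potri.013G074650 and Potri.016G094033, on 6 chromosomes, with spans of 108 to 734 bases. Their r ran from 0.880 to 0.997 over the 8 LBD4-OE libraries and from 0.812 to 0.922 over the 9 LBD11-OE libraries. For the other 46 members it ran from -0.584 to 0.488 over the LBD11-OE libraries, and the highest over the LBD4-OE libraries was 0.839. The points share library totals and line membership, and replicates of a line may not be independent, so these values are a description.

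The values show the link library by library. Potri.003G067400 (chromosome 3, 9451633 to 9451834, minus strand) was at 0.542, 0.310, 0.257, 0.613 and 0.209 CPM in WT. In LBD4-OE it was at 2.39, 2.72 and 4.64 CPM in line 11, 0.776 and 0.770 CPM in line 14, and 0.267, 1.39 and 0.863 CPM in line 17. In LBD11-OE it was at 6.30, 2.17 and 1.27 CPM in line 1, 5.79, 2.92 and 1.30 CPM in line 2, and 1.69, 3.58 and 2.99 CPM in line 14. The summed interval took the same order within LBD11-OE lines 1 and 2, at 883, 678 and 356 CPM in line 1 and 1234, 743 and 502 CPM in line 2. It did not in line 14, where the interval was at 538, 614 and 769 CPM and the last 2 libraries changed places. LBD4-OE-17 replicate 1, the lowest LBD4-OE library for the interval (155 CPM), was also the lowest for this gene. In LBD4-OE-11 the mean of each of the 6 genes was 74.5% to 120% of its LBD11-OE mean.

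Potri.013G074650 (chromosome 13, 6293891 to 6294281, plus strand), on the chromosome of the interval but far outside it, was at 0.485, 0.429, 0.624, 0.379 and 0.488 CPM in WT. It was at 1.66, 2.39 and 3.29 CPM in LBD4-OE-11 and between 0.427 and 1.34 CPM in the other 5 LBD4-OE libraries. Its log2 fold change in LBD4-OE of 1.62 ± 0.47 (SE, edgeR adjusted p = 0.0480) became 0.89 without line 11 (adjusted p = 0.227). Potri.016G094033 (chromosome 16, 8460794 to 8461308, plus strand) was at 0.342, 0.0477, 0.0734, 0.525 and 0.384 CPM in WT, at 1.58, 2.75 and 2.47 CPM in LBD4-OE-11, and between 0.481 and 0.830 CPM in the other LBD4-OE libraries. Its log2 fold change was 2.20 ± 0.56 (SE) at an edgeR adjusted p of 0.0296, and 1.31 without line 11, at an adjusted p of 0.143. Neither call remained without line 11. Whether these 6 genes share sequence with genes of the interval, so that reads could be counted for either, was not tested.

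**Figure D3:**
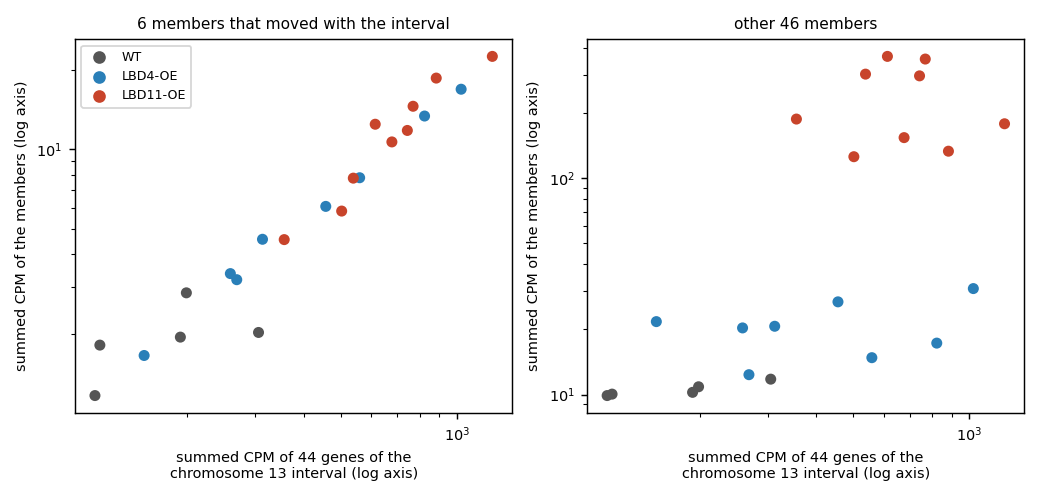
Summed CPM of the members against the summed CPM of the 44 genes of the chromosome 13 interval, 1 point per library (log axes). The left panel holds the 6 genes that followed the interval and the right panel the other 46. On the left, LBD4-OE and LBD11-OE libraries lie along 1 line, and on the right they part into 2 levels at like interval sums.

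The LBD11-OE lines did not carry the members to the same level. Line 14 had the highest mean for 34 of 52 members, line 2 for 11 and line 1 for 7, and line 1 had the lowest for 29. Over the 22811 genes with an LBD11-OE mean of at least 1 CPM, line 14 was highest for 21.5%, line 2 for 44.2% and line 1 for 34.3%. The ratio of the line 14 to the line 1 mean had a median of 1.61 over the members and 0.972 over those genes. It was at least 2 for 21 members and at most 0.5 for 2. The rule used the mean of each line, as a limit of at least 1 CPM, but not the differences among lines. The joint edgeR test among the 3 lines called 6 members, beside 1.36% of 26271 genes and 1.43% of the 22339 genes that met the same limit in each line. At an unadjusted p under 0.05 there were 24 members, beside 11.1% of all genes. Because the LBD11-OE means chose the members, these counts are a description. Leaving out LBD11-OE-14 replicate 2 left 1 of the 6 calls, and leaving out LBD11-OE-14 replicate 3 or replicate 1 or 2 of LBD11-OE-1 left 3.

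All 6 called members had their highest mean in line 14. Potri.005G187600 (chromosome 5, 19522182 to 19523887, minus strand) was at 6.02, 6.36 and 8.37 CPM in line 1, 11.4, 14.8 and 5.31 CPM in line 2, and 29.4, 35.6 and 29.5 CPM in line 14. Line 14 stood clear of the other lines, none of whose libraries reached 15 CPM (edgeR adjusted p among lines = 0.00574). Its WT libraries were at 0.143, 0.262, 0.0367, 0.350 and 0.558 CPM, and its LBD4-OE mean was 0.418 ± 0.269 CPM (SD, n = 8).

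Potri.016G101100 (chromosome 16, 10194549 to 10197776, minus strand) was at 0.522, 1.64 and 1.67 CPM in line 1, 3.77, 2.68 and 0.738 CPM in line 2, and 7.48, 10.4 and 8.01 CPM in line 14. Line 14 stood clear of the other lines (edgeR adjusted p among lines = 0.00435), while LBD4-OE was at 0.0924 ± 0.0782 CPM (SD, n = 8) and WT at 0.190 ± 0.122 CPM (SD, n = 5). Potri.001G061100 (chromosome 1, 4676958 to 4679881, plus strand) was at 3.17, 3.27 and 3.11 CPM in line 1, 4.95, 13.3 and 4.01 CPM in line 2, and 14.6, 19.1 and 15.8 CPM in line 14 (edgeR adjusted p among lines = 0.0250). One library, LBD11-OE-2 replicate 2, came close to the line 14 range. Potri.005G059900 (chromosome 5, 3782342 to 3787963, minus strand) was at 2.15, 3.31 and 4.38 CPM in line 1, 5.32, 6.54 and 2.29 CPM in line 2, and 15.9, 15.1 and 15.3 CPM in line 14 (edgeR adjusted p among lines = 0.00220). This gene kept its call in all 29 alternatives run for the line test. The other 2 calls, Potri.019G117700 and Potri.019G064800, lie in runs of neighbouring members.

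**Figure D4:**
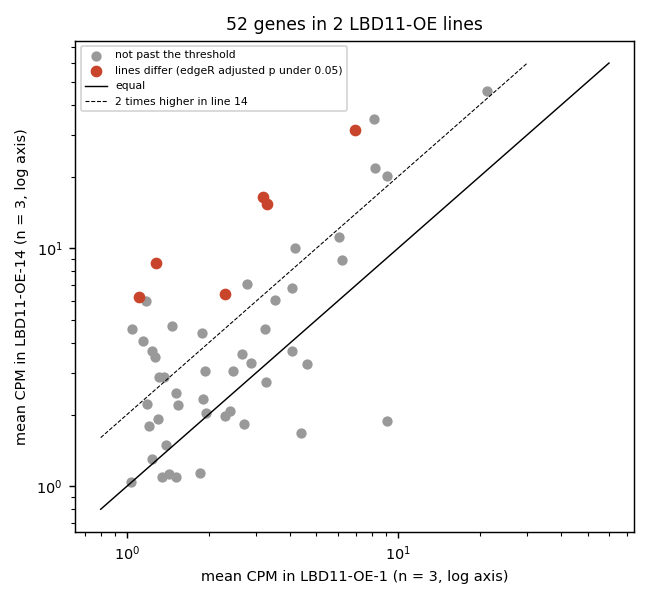
Mean CPM of each of the 52 genes in LBD11-OE-14 against LBD11-OE-1 (n = 3 each, log axes). Red points are the 6 genes for which the 3 lines differed by edgeR, all above the dashed line of a 2-fold higher mean in line 14, and 2 grey points lie well below the line of equality.

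Libraries differed within lines. In LBD11-OE-2, replicate 2 was the highest of its 3 libraries for 34 of 52 members and replicate 3 the lowest for 35. Over the 22811 genes with an LBD11-OE mean of at least 1 CPM, these libraries were highest for 41.8% and lowest for 38.4%. LBD11-OE-1 replicate 3 was highest of its line for 51.9% of members, beside 38.1% of those genes. LBD11-OE-14 replicate 1 was lowest for 51.9%, beside 38.5%, and LBD4-OE-11 replicate 3 highest for 57.7%, beside 27.1%. Potri.T125404 (scaffold_502, 87631 to 88287, plus strand), named after its values were seen, was the extreme case, at 5.13, 21.7 and 3.02 CPM in line 2 and between 0.914 and 3.81 CPM in the libraries of the other lines. The 2 members at most 0.5 times as high in line 14 as in line 1 were Potri.001G141801 and Potri.003G111300. Potri.001G141801 was at 10.3, 4.47 and 12.4 CPM in line 1, 8.04, 1.43 and 0.738 CPM in line 2, and 0.920, 1.14 and 3.59 CPM in line 14. Potri.003G111300 (chromosome 3, 13356443 to 13357576, plus strand) was at 4.98, 3.18 and 4.95 CPM in line 1, 4.48, 7.24 and 3.16 CPM in line 2, and 1.43, 1.88 and 1.73 CPM in line 14. Neither was called in the joint test of the lines.

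The spread over the 9 LBD11-OE libraries varied widely from gene to gene. The SD was 51.6% of the mean at the median member and ran from 23.7% to 134%. The highest library was under 3 times the lowest for 5 members and at least 10 times the lowest for 13. Potri.004G016800 (chromosome 4, 1210896 to 1211232, minus strand), named here as the most even, ran from 1.34 to 2.71 CPM in LBD11-OE with a median of 1.93 CPM. Its means were 0.245 ± 0.184 CPM (SD, n = 5) for WT and 0.391 ± 0.178 CPM (SD, n = 8) for LBD4-OE. Potri.004G033300 (chromosome 4, 2578201 to 2578835, plus strand), also named after its values were seen, ran from 2.52 to 7.66 CPM in LBD11-OE, with a mean of 0.391 CPM in WT and 0.309 CPM in LBD4-OE. In both genes all LBD11-OE libraries lay clear of all WT libraries.

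The members were spread over 16 chromosomes and 1 scaffold, with 9 on chromosome 1, 6 each on chromosomes 5 and 19, and 5 on chromosome 13. These chromosomes hold 11.7% (1), 6.48% (5), 3.39% (19) and 4.01% (13) of all genes. Their genomic spans were shorter than over all genes, with a median of 1526 bases against 2941 bases, and 15 of 52 (28.8%) spanned under 1000 bases against 13.8% of all genes. These 15 include the 6 genes that moved with the chromosome 13 interval. Spans were not compared with those of the 10650 genes with a WT mean under 0.5 CPM. Potri.002G117100 (chromosome 2, 8863275 to 8864799, plus strand) lies wholly within Potri.002G117000 on the opposite strand, with WT and LBD11-OE means of 8.23 and 8.02 CPM. Reads of that pair cannot be told apart with certainty, since no source used here states whether the counting used strand. The other 51 members overlap no other gene of the files.

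A total of 8 members sat within 5 genes of another member, in 3 runs whose members all lie on 1 strand. On chromosome 13, Potri.013G080300 (6929099 to 6930856), Potri.013G081233 (6975403 to 6977178) and Potri.013G082800 (7066170 to 7067713) are on the minus strand. Potri.013G080300 was at 0.570, 0.0715, 0, 0.642 and 0.0697 CPM in WT, at 0.0310, 0.574 and 2.68 CPM as minimum, median and maximum in LBD4-OE, and at 2.52, 2.99 and 11.05 CPM in LBD11-OE. Potri.013G081233 reached 0.707 to 3.18 CPM and Potri.013G082800 1.10 to 4.72 CPM in LBD11-OE, from no more than 0.350 and 0.143 CPM in any WT library. All 3 genes shared their extremes: LBD4-OE-17 replicate 2 was the highest LBD4-OE library and LBD11-OE-14 replicate 1 the highest LBD11-OE library for each.

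On chromosome 19, Potri.019G064800 (10489390 to 10491122), Potri.019G065000 (10508385 to 10510029) and Potri.019G065200 (10534524 to 10536232) are on the plus strand. Potri.019G064800 was at 0.0855, 0.143, 0.0734, 0.117 and 0.0697 CPM in WT and ran from 0.0310 to 0.308 CPM in LBD4-OE. It was at 0.676, 1.13 and 1.51 CPM in LBD11-OE-1, 2.28, 6.05 and 0.738 CPM in LBD11-OE-2, and 4.04, 9.15 and 5.61 CPM in LBD11-OE-14 (edgeR adjusted p among lines = 0.0365). Potri.019G065000 was highest in the same library, LBD11-OE-14 replicate 2 (7.33 CPM), while Potri.019G065200 was highest in LBD11-OE-2 replicate 2 (9.22 CPM). None of the 3 was called in LBD4-OE against WT (lowest edgeR adjusted p = 0.743), and their LBD4-OE and WT ranges overlapped. The highest LBD4-OE library was above all WT libraries for Potri.019G064800 and for Potri.019G065200 (0.493 against at most 0.228 CPM in WT). The call among lines of Potri.019G064800 was lost in 13 of 29 alternatives.

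Further along chromosome 19, Potri.019G117402 (14377479 to 14383493) and Potri.019G117700 (14393757 to 14394884) are on the minus strand. Potri.019G117700 was at 0, 0.0238, 0.110, 0.0292 and 0 CPM in WT, and 0.0534 CPM was its highest value in LBD4-OE. It was at 2.09, 1.83 and 3.01 CPM in LBD11-OE-1, 1.70, 3.58 and 1.72 CPM in LBD11-OE-2, and 4.81, 5.49 and 8.98 CPM in LBD11-OE-14 (edgeR adjusted p among lines = 0.0288). Every LBD11-OE library was more than 10 times the highest of the other 13 libraries. Potri.019G117402 ran from 0.183 to 0.334 CPM in WT, from 0 to 0.321 CPM in LBD4-OE and from 0.603 to 3.71 CPM in LBD11-OE.

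Genes beside these runs did not meet the rule themselves, and their LBD11-OE against WT differences are given as a description. Taking the genes within and up to 2 genes on either side of each run, 13 non-members lay on the strand of the run, and 11 of them passed the low-count filter. Of these 11, 7 were higher in LBD11-OE than in WT and 0 lower, beside 16.1% and 16.3% of all genes tested. On the other strand 6 of 7 non-members were tested, of which 1 was higher and 1 lower. None of the 17 tested was called in LBD4-OE against WT (lowest edgeR adjusted p = 0.0757). Because the windows were placed around members with high LBD11-OE values, and reads of near-identical neighbours may be counted for each other, the counts are a description of these 3 places. The low-count filter can also be passed through the LBD11-OE libraries alone, which favours neighbours that are higher there.

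Potri.019G117500 (chromosome 19, 14389393 to 14389907, minus strand), between the last pair of members, had a WT median of 1.19 CPM (0.730 to 1.54), an LBD4-OE median of 0.936 CPM (0.610 to 1.29) and an LBD11-OE median of 10.4 CPM (5.20 to 14.4). It failed the rule only through its WT level, and its log2 fold change in LBD11-OE was 3.07 ± 0.26 (SE, edgeR adjusted p = 8.44e-09). Its neighbour Potri.019G117566 (14391733 to 14392410) ran from 0.314 to 1.69 CPM in WT and from 4.01 to 14.8 CPM in LBD11-OE. Its log2 fold change was 3.42, with an SE of 0.39 and an edgeR adjusted p of 9.41e-07. In the run at lower coordinates Potri.019G065100 (10521918 to 10523498, plus strand), between members, rose by 4.43 ± 0.69 (log2, SE, edgeR adjusted p = 2.81e-05) but reached a median of only 0.707 CPM. Potri.019G064900, which lies between members of the same run but on the other strand, ran from 0.367 to 0.872 CPM in WT and from 0.401 to 0.838 CPM in LBD11-OE (edgeR adjusted p = 0.980). On chromosome 13, Potri.013G080400 and Potri.013G082700, on the strand of the run, rose by 2.97 ± 0.68 and 3.29 ± 0.62 (log2, SE, edgeR adjusted p = 0.00168 and 0.000265). Potri.013G082900, on the other strand, fell by 0.82 ± 0.17 (log2, SE, edgeR adjusted p = 0.000741).

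**Figure D5:**
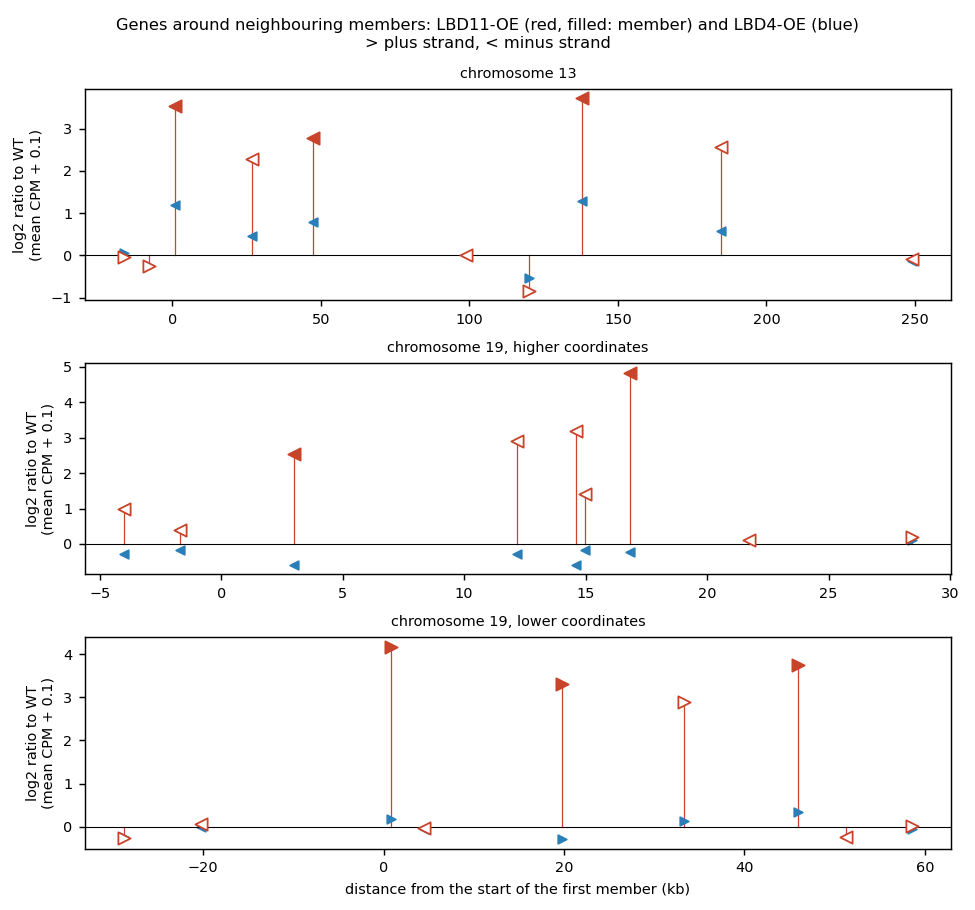
Log2 ratio to WT of mean CPM + 0.1 for the genes in and beside the 3 runs, against distance from the start of the first member (kb). Red triangles are LBD11-OE (filled for members), blue triangles LBD4-OE, and each points along its strand. Filled and several open red triangles of the run's strand stand above 2, and those of the other strand lie near or below 0.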

How the data were processed

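RNA was sequenced from poly(A)-enriched libraries read from both ends, per the labels' protocols. The authors' deposited files hold, per library, raw HTSeq counts of reads over genes, per the labels. The submitters' processing notes also name MultiQC, Trimmomatic, HISAT2 and Cufflinks. Versions, genome build and strand setting are not given in the sources used here.

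CPM was computed from the deposited counts and library totals. Counts were tested with edgeR 4.0.16 in R 4.3.3 (TMM, default low-count filter, robust quasi-likelihood F test). Construct contrasts used 3 group means and line contrasts 7, over all 22 libraries. A call is a Benjamini-Hochberg adjusted p under 0.05 over all genes tested. Alternatives used limma 3.58.1, DESeq2 1.42.0, other scalings and filters, and left out libraries or lines. The scripts were tested on simulated data.

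Members, lists and tests were chosen with earlier results of these data known. The genes named are the 8 highest in LBD11-OE, the 4 with the largest ratio to WT, those called in LBD4-OE or (the 4 lowest p) among LBD11-OE lines, those beside each limit of the rule, and those within 5 genes of another. Other genes named were picked after their values were seen. Lists by gene product, promoter motifs and protein sequences, which need a reference, were not analysed here. Replicate libraries all differed beyond sampling noise (lowest chi-square per degree of freedom 5.91).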

Additional observations from a re-analysis of the deposited data

Results flagged for a closer look

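Among the 27 members named by rule and their sum, 84 groups of 5 to 9 libraries were searched for a library far from the rest of its group, and 13 had one. About 1 in 20 groups would be flagged by chance under the rule's own assumptions, which were not checked for these data. Groups at a few reads are flagged easily, and the LBD4-OE and LBD11-OE groups each pool 3 lines. The 13 of 84 are therefore not read as an excess. In WT, Potri.011G126000 (0.0570 CPM in replicate 1, with all others at 0), Potri.001G157000 (0.114 CPM in replicate 1) and Potri.019G117700 (0.110 CPM in replicate 3) each had 1 high library. Potri.019G065200 had 1 low WT library, 0.0715 CPM in replicate 2. In LBD4-OE-11 replicate 3, Potri.010G224600 stood out at 0.558 CPM and Potri.005G059900 at 0.0294 CPM, the latter the only LBD4-OE library with a read of that gene. Potri.001G435800 was at 0.869 CPM in LBD4-OE-14 replicate 1. LBD4-OE-17 replicate 2 stood out for Potri.019G094000 (3.24 CPM), Potri.013G080300 (2.68 CPM) and Potri.013G082800 (1.37 CPM), the last 2 being neighbours on chromosome 13. In LBD11-OE, replicate 1 of line 14 stood out for Potri.013G080300 (11.05 CPM) and Potri.013G081233 (3.18 CPM), again of that run, and replicate 2 of line 2 for Potri.001G157000 (6.92 CPM).

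The level of 6 members differed among the 3 LBD11-OE lines by the joint edgeR test, beside 1.36% of all genes tested. Leaving out 1 library gave 1 to 9 such members, and the source of the line differences was not tested. The adjusted p-values were 0.00220 for Potri.005G059900, 0.00435 for Potri.016G101100, 0.00574 for Potri.005G187600, 0.0250 for Potri.001G061100, 0.0288 for Potri.019G117700 and 0.0365 for Potri.019G064800.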

How the results depend on the processing

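The members called higher in LBD4-OE than in WT numbered 6 and depended on the method. There were 15 with DESeq2, which held all 6, 3 without a low-count filter, 1 in limma voom and 0 in limma voom where line was a random block. The count was 3 within the 15 libraries outside the set of 7, 3 without line LBD4-OE-11, 3 without line LBD11-OE-14, and 2 when LBD4-OE-11 replicate 1 and WT replicate 3 were both left out. Leaving out 1 library gave 2 to 8, with 2 without WT replicate 2, 3 or 5 or without LBD4-OE-11 replicate 2 or 3, and 3 without LBD4-OE-17 replicate 2. Of 38 alternatives, Potri.016G057400 lost its call in 1 (line as a random block, adjusted p = 0.103), Potri.004G169200 in 3, Potri.016G094033 in 12, Potri.019G094000 in 18, Potri.001G157000 in 23 and Potri.013G074650 in 24. The 6 calls among LBD11-OE lines became 12 in limma voom and 1 to 9 when 1 library was left out. The 0 calls among LBD4-OE lines became 1 in DESeq2. The calls of LBD11-OE over WT stayed at 49 to 52 and those over LBD4-OE at 42 to 47 in 38 alternatives each. In the main fit 16.1% and 8.08% of all genes were called higher in these comparisons. The rule chose members for high LBD11-OE and low WT values, so the stability of these calls follows from that choice. A WT limit of 0.25 CPM gave 26 members, a limit of 1 CPM gave 77, a ratio of 8 gave 35, and leaving out 1 library 45 to 54. No result reversed.

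Replicate numbers did not pair the libraries: deviations of same-numbered libraries had r from -0.381 to 0.304 (median -0.00925), and 3 of 22 libraries were closest to their own number. With replicate number as a block, 1 member was called in LBD4-OE and 3 among LBD11-OE lines. At 23437445 to 41969957 counts per library, a member at 0.1 CPM had only 2 to 4 reads, which limits all WT values.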
